A study of Mus musculus with 11 samples.

Results

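Messenger RNA of 10 circadian clock genes was followed in mouse embryonic fibroblasts (MEFs) after knockdown of the lncRNA Pint or of p53. The genes were Clock, Arntl, Per1, Per2, Per3, Cry1, Cry2, Nr1d2, Bhlhe40 and Dbp, a list of core clock and output regulators drawn up by function, and each was found as 1 probe set that carries it as its only gene symbol. They are 10 of 19937 genes with a probe set of their own on the array. All cells were MEF LSL, of mixed C57BL/6 x 129/SvJ background, in which a stop cassette silences p53 until Cre removes it. In all 4 groups p53 was restored by 24 h of AdenoCre (multiplicity of infection 5). Transfection followed, and 24 h after it came 150 nM doxorubicin, a DNA-damaging drug, for 12 h. The groups were Pint ASO (a pool of antisense oligonucleotides against Pint, 3 arrays), control ASO (non-targeting, 2 arrays), p53 siRNA (3 arrays) and control siRNA (3 arrays). No group without doxorubicin was included, ASO and siRNA differ in chemistry, and each group was collected at 1 time, so the values are levels at that time and not rhythms. Whether the cultures were synchronised is not given in the sources used here.

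The mammalian clock is a loop of transcription with delayed feedback. CLOCK and ARNTL (also called BMAL1) bind E-boxes and switch on the Per and Cry genes, whose proteins return to the nucleus and inhibit CLOCK and ARNTL until they are phosphorylated and degraded. A companion loop runs through the REV-ERB repressors, encoded by Nr1d1 and Nr1d2, and the ROR activators, which compete at elements in the Arntl promoter. DBP and its relatives carry the rhythm to output genes through D-boxes. Fibroblasts hold such a clock in each cell, and cultures whose cells are not in step show a flat average.

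Of the 10 genes, 8 matched RefSeq promoter windows (12 windows, mouse build GRCm38.p6), and these were searched on both strands from 250 bases before the transcription start to 50 after it. The windows of Per1, Cry1, Cry2 and Per3 are shown 5′ to 3′ on the strand of the gene, from 250 bases before the start up to the start, because they hold the elements through which the loop is known to act, and capitals mark the motif. The E-box CACGTG was found in Per1 and Cry1 and in 7.15% of all 32851 windows, and its variant CACGTT, which reads AACGTG on the other strand, in Cry1 and Cry2 and in 4.68% of all windows. Per3 held the D-box TTATGTAA in 2 copies, a motif of 0.938% of all windows. The windows lie at chr11:69098699-69098948 (Per1, plus strand), chr10:85185055-85185304 (Cry1, minus strand), chr2:92434070-92434319 (Cry2, minus strand) and chr4:151044666-151044915 (Per3, minus strand).
Per1: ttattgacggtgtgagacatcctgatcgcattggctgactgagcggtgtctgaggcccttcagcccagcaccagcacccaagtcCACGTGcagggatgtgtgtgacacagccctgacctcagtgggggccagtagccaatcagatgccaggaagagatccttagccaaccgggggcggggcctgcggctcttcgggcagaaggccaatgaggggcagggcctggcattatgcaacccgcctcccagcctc
Cry1: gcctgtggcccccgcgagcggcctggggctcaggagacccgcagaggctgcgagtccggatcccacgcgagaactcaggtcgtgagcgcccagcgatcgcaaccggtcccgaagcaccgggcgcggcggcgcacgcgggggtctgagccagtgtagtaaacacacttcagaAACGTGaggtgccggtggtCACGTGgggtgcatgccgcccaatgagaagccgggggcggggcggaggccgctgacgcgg
Cry2: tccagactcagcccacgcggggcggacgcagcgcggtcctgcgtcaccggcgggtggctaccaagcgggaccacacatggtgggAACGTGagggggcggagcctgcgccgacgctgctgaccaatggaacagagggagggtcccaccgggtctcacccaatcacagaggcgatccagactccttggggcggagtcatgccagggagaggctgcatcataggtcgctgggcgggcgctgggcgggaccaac
Per3: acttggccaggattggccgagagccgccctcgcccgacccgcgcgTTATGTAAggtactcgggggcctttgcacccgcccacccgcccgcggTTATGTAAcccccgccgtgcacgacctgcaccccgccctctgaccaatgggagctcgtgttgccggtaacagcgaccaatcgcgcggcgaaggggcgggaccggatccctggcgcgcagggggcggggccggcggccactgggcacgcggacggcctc

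Arntl held the core of the element bound by ROR and REV-ERB proteins, GTAGGTNA, in 2 copies around its start, and 2.14% of all windows hold this core, which was added to the search after the windows had been seen. Both copies are shown on the plus strand with the core in capitals, at chr7:113207493-113207522 for the first and chr7:113207529-113207558 for the second.
Arntl copy 1: ttggtcggaaaGTAGGTTAgtggtgcgaca
Arntl copy 2: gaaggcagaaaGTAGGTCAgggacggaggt
The full cAMP response element TGACGTCA was in none of these 12 windows and in 1.79% of all windows. These are matches of letters and not measured binding.

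Values are RMA log2 intensities, in which 1 unit is a doubling, and a gene was called when the Benjamini-Hochberg adjusted p of the limma fit over all 26038 probe sets tested was under 0.05. Any pair of arrays correlated at 0.991 to 0.995 inside a group and at 0.971 to 0.991 across groups. The Pint probe set (Lncpint) lay at 8.60, 8.48 and 8.55 in Pint ASO arrays, against 10.41 and 10.23 in control ASO arrays. It lay at 9.13, 9.02 and 9.06 in p53 siRNA arrays, against 9.43, 9.88 and 9.53 in control siRNA arrays. Pint was thus lowest in every array that received its ASO, with 29.2% of the control ASO level left. Between the controls Pint was 0.71 higher with ASO (1.63-fold, adjusted p = 0.0137), so this share holds against control ASO only. That call was lost without control siRNA replicate 3 (0.0535) or control ASO replicate 1. Trp53 itself was not analysed here. All 10 fibroblast markers looked at were above the low-value limit of 6 on every array. Markers of other cell types were above it on every array in 5 of 5 cases for smooth muscle, 4 of 5 for epithelium, 2 of 4 for macrophages and blood, 4 of 4 for endothelium and 3 of 4 for neural cells. Epcam, Ptprc and Adgre1, which define epithelium, blood cells and macrophages, were below it on every array. The limit of 6 is under the median of every array (7.31 to 7.38), so passing it cannot tell cell types apart. Mean log2 levels per array were 11.50 to 12.47 for the fibroblast list and 10.45 to 10.80 for smooth muscle. For the other lists they were 6.78 to 7.75. Nothing in the labels says whether the arrays of a group came from separate cultures, so p-values measure the spread between these arrays, which may be technical.

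Pint ASO raised genes of the inhibitory side of the loop, and of the activator genes Clock and Arntl only Clock was called. Per1, Cry1, Cry2, Clock and Nr1d2 rose and Dbp fell, which is 6 of 10 genes called, where 19.1% of all probe sets tested were called in that comparison (8.49% higher and 10.7% lower). The called changes lay between -0.26 and 0.40 on the log2 scale, and of the 6 calls that of Cry2 held when each arm was fitted alone. p53 siRNA changed 2 of the 10, with Cry2 higher and Arntl lower, where 16.9% of all probe sets were called (7.97% higher and 8.96% lower). The median log2 change of the 10 genes was 0.15 with Pint ASO and -0.07 with p53 siRNA, beside 0.004 and 0.005 over all probe sets, and the median absolute change was 0.23 and 0.11, beside 0.13 and 0.11.

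**Figure D1:**
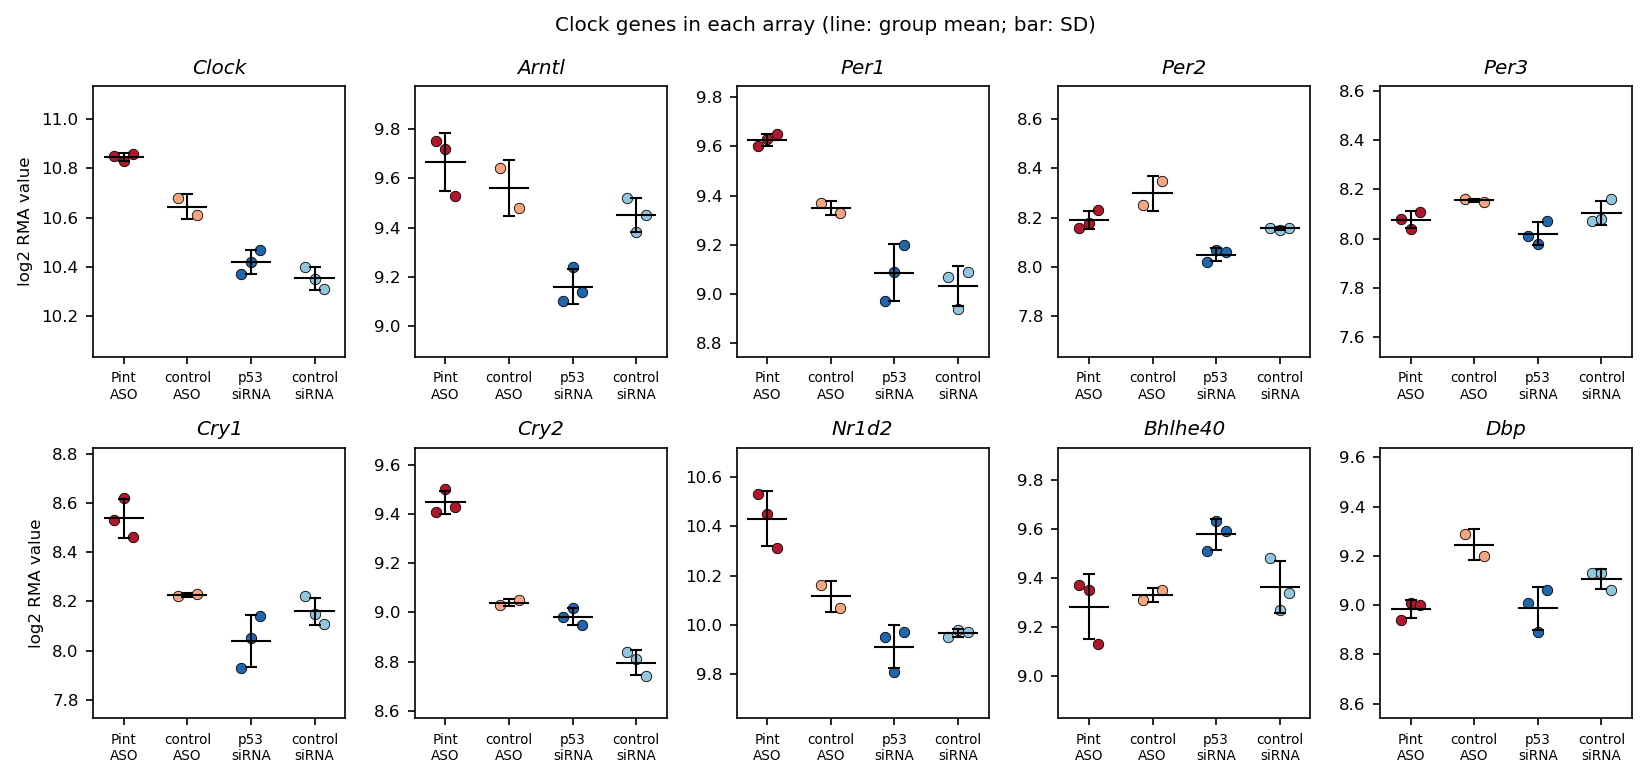
Log2 RMA value (vertical axis, each panel spanning the same range) of each clock gene in each array (points) of the 4 groups, with the group mean (line) and SD (bar). Cry2 in Pint ASO arrays lies between 9.41 and 9.50, above all other arrays, and Arntl in p53 siRNA arrays lies between 9.10 and 9.24, below all other arrays.

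Clock encodes the histone acetyltransferase partner of ARNTL. It lay at 10.85, 10.83 and 10.86 in Pint ASO arrays, against 10.68 and 10.61 in control ASO arrays. The groups did not overlap, and Clock rose by 0.20 (SE 0.05, 1.15-fold, adjusted p = 0.0211). This call was lost without control ASO replicate 2 (adjusted p = 0.119), Pint ASO replicate 1 (0.0529) or Pint ASO replicate 3 (0.051). In p53 siRNA arrays Clock lay at 10.37, 10.42 and 10.47, against 10.40, 10.35 and 10.31 in control siRNA arrays. Those ranges overlapped, and the change of 0.07 (95% interval -0.03 to 0.17) was not called.

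Arntl encodes the partner of CLOCK in the activator. Its values were 9.10, 9.24 and 9.14 in p53 siRNA arrays, against 9.52, 9.38 and 9.45 in control siRNA arrays. Every p53 siRNA array was below every control siRNA array, and Arntl fell by 0.29 (SE 0.08, 0.818-fold, adjusted p = 0.0293). The call was lost without control siRNA replicate 1 (adjusted p = 0.105) or 3 (0.0791) and without p53 siRNA replicate 1 (0.0978) or 3 (0.0867), and with each array centred on its median (0.0706). With Pint ASO the arrays read 9.75, 9.72 and 9.53, against 9.64 and 9.48 with control ASO. These overlapped, and the change was 0.10 (SE 0.09, interval -0.09 to 0.30), not called.

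The Per genes, which encode the rate-setting inhibitors of the loop, did not move as a family. Per1, which also responds quickly to extracellular signals, lay at 9.60, 9.63 and 9.65 in Pint ASO arrays, against 9.37 and 9.33 in control ASO arrays. Per1 rose by 0.28 (SE 0.07, 1.21-fold, adjusted p = 0.0249), and without any single one of the 5 ASO arrays the adjusted p lay between 0.051 (without Pint ASO replicate 1) and 0.113 (without control ASO replicate 2), so the call needed all 5. It was also lost with array weights (0.0575). In p53 siRNA arrays it lay at 8.97, 9.09 and 9.20, against 9.07, 8.94 and 9.09 in control siRNA arrays, overlapping ranges with a change of 0.05 (interval -0.09 to 0.20).

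Per2 and Per3 were not called in either knockdown. Per2 lay at 8.16, 8.18 and 8.23 in Pint ASO arrays against 8.25 and 8.35 in control ASO arrays, and at 8.02, 8.07 and 8.06 in p53 siRNA arrays against 8.16, 8.15 and 8.16 in control siRNA arrays. Both knockdown groups lay below their controls without overlap, with changes of -0.11 in each (adjusted p = 0.165 for Pint ASO and 0.144 for p53 siRNA). Such separation of groups was common, at 40.4% of all probe sets for Pint ASO and 35.7% for p53 siRNA. Per3, the least required of the family for rhythm in mice, changed by -0.08 in each (adjusted p = 0.364 and 0.298).

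The Cry genes, which encode the strongest repressors of CLOCK and ARNTL, held the largest change. Cry2 lay at 9.41, 9.50 and 9.43 in Pint ASO arrays, against 9.03 and 9.05 in control ASO arrays. It rose by 0.40 (SE 0.05, interval 0.29 to 0.52, 1.32-fold, adjusted p = 0.000673). Cry2 was the only one of the 10 genes with a log odds B over 3 (B = 3.15), where 3.12% of all probe sets had one. The study also filtered on expression in every group and used fold-change limits, so whether Cry2 passes its selection was not tested. With Pint ASO 9.97% of all probe sets had a larger absolute change than Cry2. With p53 siRNA 0 of the 10 had a B over 3, where 3.92% of all probe sets did, and 4 of the 10 had an unadjusted p under 0.05. The share of all probe sets under that unadjusted cut was not counted, and it is at least the 16.9% called. Cry2 was also at 8.98, 9.02 and 8.95 in p53 siRNA arrays, against 8.84, 8.81 and 8.74 in control siRNA arrays. It rose there by 0.18 (SE 0.05, 1.14-fold, adjusted p = 0.022), a call lost without control siRNA replicate 2 (0.0506) or 3 (0.0862) or p53 siRNA replicate 1 (0.0558) or 2 (0.0824).

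Cry1 lay at 8.53, 8.62 and 8.46 in Pint ASO arrays, against 8.22 and 8.23 in control ASO arrays, and rose by 0.31 (SE 0.07, 1.24-fold, adjusted p = 0.0155). Without control ASO replicate 1 or 2 the adjusted p was 0.0761 or 0.0662. In p53 siRNA arrays it lay at 7.93, 8.05 and 8.14, against 8.22, 8.15 and 8.11 in control siRNA arrays. These ranges overlapped, with a change of -0.12 (interval -0.27 to 0.03). Each Pint ASO array was above every other array of the series for Cry1.

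Nr1d2 encodes REV-ERB beta, a heme-binding repressor of Arntl. It lay at 10.53, 10.45 and 10.31 in Pint ASO arrays, against 10.16 and 10.07 in control ASO arrays. Nr1d2 rose by 0.32 (SE 0.07, 1.25-fold, adjusted p = 0.0161), and the call was lost without control ASO replicate 2 (0.0988). The p53 siRNA arrays, at 9.95, 9.81 and 9.97, overlapped the control siRNA arrays, at 9.95, 9.98 and 9.97.

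Bhlhe40 encodes DEC1, a repressor that binds E-boxes. It was the one gene highest with p53 siRNA, at 9.51, 9.63 and 9.59, against 9.48, 9.27 and 9.34 with control siRNA. The change of 0.21 (SE 0.08, interval 0.04 to 0.39, adjusted p = 0.105) was not called. With Pint ASO the values of 9.37, 9.35 and 9.13 overlapped those with control ASO, 9.31 and 9.35.

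Dbp, a PAR bZIP activator and a direct CLOCK and ARNTL target, moved the other way from the 5 genes that rose. It lay at 8.94, 9.01 and 9.00 in Pint ASO arrays, against 9.29 and 9.20 in control ASO arrays. Dbp fell by 0.26 (SE 0.06, 0.837-fold, adjusted p = 0.016), a call lost without control ASO replicate 1 (0.109) or Pint ASO replicate 1 (0.0507). In p53 siRNA arrays it lay at 9.01, 8.89 and 9.06, against 9.13, 9.13 and 9.06 in control siRNA arrays. The change was -0.12 (SE 0.05, adjusted p = 0.19).

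**Figure D2:**
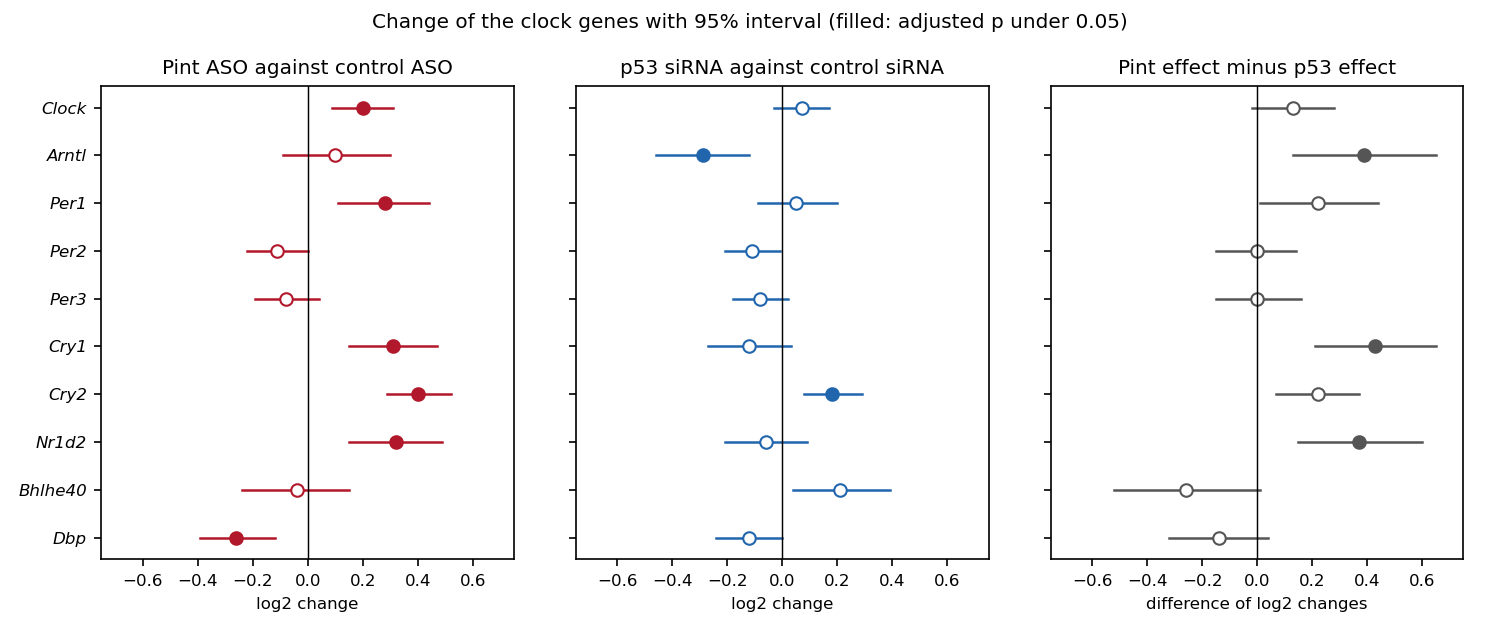
Log2 change (horizontal axis) of the 10 clock genes (vertical axis) with Pint ASO, with p53 siRNA, and the difference between these changes, as estimate (circle, filled where the adjusted p was under 0.05) and 95% interval (line). Pint ASO has 6 filled circles and p53 siRNA 2, and the differences of Cry1, Arntl and Nr1d2 are filled, at 0.43, 0.39 and 0.37.

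The difference between the knockdown effects was tested within the same fit. It was called for Cry1 (0.43, SE 0.10, adjusted p = 0.0131), Arntl (0.39, SE 0.11, adjusted p = 0.0418) and Nr1d2 (0.37, SE 0.10, adjusted p = 0.0294), all higher with Pint ASO relative to p53 siRNA, where 18.5% of all probe sets were called (9.15% higher and 9.4% lower). None of the 10 had a B over 3, which 3.61% of all probe sets had, and 5 of the 10 had an unadjusted p under 0.05. The share of all probe sets under that unadjusted cut was not counted, and it is at least the 18.5% called. The Cry1 difference was called without each of the 11 arrays in turn. The Arntl difference was lost without control ASO replicate 2 (adjusted p = 0.157), control siRNA replicate 1 or 3, p53 siRNA replicate 1 or 3, or Pint ASO replicate 1 or 2 (0.0796 to 0.0926). The Nr1d2 difference was lost without control ASO replicate 2 (0.108), p53 siRNA replicate 2, Pint ASO replicate 1 or 2, or any 1 of the control siRNA arrays (0.054 to 0.0618). For Per2 and Per3 the differences were 0.00 and 0.00 (intervals -0.15 to 0.14 and -0.15 to 0.16). Cry2, which was called higher in both knockdowns, differed by 0.22 (interval 0.07 to 0.37, adjusted p = 0.0543). In this contrast the target and the chemistry of the oligonucleotide cannot be told apart.

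The controls were also compared, since the clock genes stood at different levels in them. Per1 (0.32, SE 0.07, adjusted p = 0.0421), Cry2 (0.24, SE 0.05, adjusted p = 0.0319) and Clock (0.30, SE 0.05, adjusted p = 0.0139) exceeded in control ASO arrays their control siRNA level, 3 of 10 genes where 4.02% of all probe sets were called (2.29% higher and 1.73% lower). The calls moved with single arrays. Without control ASO replicate 1 the adjusted p was 0.19 for Per1, 0.121 for Cry2 and 0.101 for Clock. Without control siRNA replicate 3 it was 0.0817, 0.105 and 0.0576 in that order of genes. Per1 was also lost without control ASO replicate 2, control siRNA replicate 1 or 2, p53 siRNA replicate 2 or any 1 of the Pint ASO arrays (up to 0.106), and Cry2 without control ASO replicate 2, control siRNA replicate 1 or 2, or p53 siRNA replicate 2 or 3 (up to 0.115). A B over 3 was reached by 0 of the 10 and by 0.595% of all probe sets, and an unadjusted p under 0.05 by 5 of the 10. The share of all probe sets under that unadjusted cut was not counted, and it is at least the 4.02% called, so the 5 genes have no background beside them. The median change of the 10 genes was 0.14, beside -0.009 over all probe sets. Each control ASO value of Per1, Cry2 and Clock lay above each control siRNA value of the gene, as 32.6% of all probe sets were separated in that comparison, in either direction. Pint ASO arrays were above both controls in these 3 genes. For Per1 and Clock the difference between the controls was larger than the Pint ASO change (0.28 and 0.20), and for Cry2 it was smaller (0.40).

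Fibroblast marker levels moved with the knockdowns. Of the 10 markers, 8 fell with Pint ASO, where 10.7% of all probe sets fell, and 6 rose with p53 siRNA, where 7.97% of all rose. Their summed level, as log2 of the summed intensities, was 15.78 to 15.83 in Pint ASO arrays and 16.05 in both control ASO arrays, and 16.25 to 16.27 in p53 siRNA arrays and 16.10 to 16.12 in control siRNA arrays. Single markers of other cell types moved too. With Pint ASO Kdr, of endothelium, rose by 0.77 and Tek, of the same list, fell by 0.17, and Cdh1 of epithelium fell by 0.68, Cd68 of macrophages by 0.47, and Cnn1 and Des of smooth muscle by 0.40 and 0.35. With p53 siRNA Cnn1 rose by 0.30, and Cd68 fell by 1.04, Des by 0.87, the neural marker Sox2 by 0.66 and Krt18 of epithelium by 0.20. In these bulk cultures fewer cells of a type and less RNA per cell cannot be told apart, and the part of the markers in the clock gene changes was not tested.

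Other parts of the clock were described from lists of 35 genes, and 31 of them had their own probe set. With Pint ASO 9 rose and 4 fell, where 8.49% of all probe sets rose and 10.7% fell. With p53 siRNA 6 rose and 5 fell, where 7.97% of all rose and 8.96% fell. Their median log2 change was 0.14 with Pint ASO and -0.02 with p53 siRNA, beside 0.004 and 0.005 over all probe sets.

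In the transcription loop 3 of 7 genes rose and 1 fell with Pint ASO (8.49% and 10.7% of all probe sets), and 3 of 7 fell with p53 siRNA (8.96% of all). Nr1d1, which encodes REV-ERB alpha, lay at 11.66, 11.71 and 11.80 in Pint ASO arrays, against 11.06 and 11.11 in control ASO arrays. In p53 siRNA arrays it lay at 10.64, 10.60 and 10.60, against 10.87, 10.89 and 10.87 in control siRNA arrays. Nr1d1 rose by 0.64 (SE 0.05, adjusted p = 6.49e-05) with Pint ASO and fell by 0.26 (SE 0.05, adjusted p = 0.0039) with p53 siRNA. The difference of 0.90 between these effects was called (adjusted p = 3.65e-05), so the 2 REV-ERB genes were both higher with Pint ASO.

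Ciart, which encodes the repressor CHRONO, had another, dimmer probe set, which rose by 0.89 (SE 0.10, adjusted p = 0.000323) with Pint ASO. The Ciart probe set used lay at 10.95, 10.98 and 10.84 in Pint ASO arrays, against 10.01 and 10.08 in control ASO arrays. It rose by 0.88 (SE 0.16, adjusted p = 0.00414). Between the controls its level was 0.95 higher with ASO (adjusted p = 0.0127), a call lost without either control ASO array. The dimmer probe set was 0.85 higher between the controls (adjusted p = 0.00268). Bhlhe41, the DEC2 repressor gene, rose by 0.57 (SE 0.15, adjusted p = 0.0248) with Pint ASO, a call lost without control ASO replicate 2 (0.142), Pint ASO replicate 1 (0.0745) or 2 (0.0689). Arntl2, the paralog of Arntl, fell in both knockdowns. It lay at 9.12, 9.27 and 9.10 in Pint ASO arrays against 9.56 and 9.53 in control ASO arrays, and at 9.00, 9.22 and 9.10 in p53 siRNA arrays against 9.75, 9.74 and 9.74 in control siRNA arrays. The changes were -0.38 (SE 0.07, adjusted p = 0.00579) and -0.64 (SE 0.06, adjusted p = 0.000136). Rorb, a ROR activator gene, fell by 0.23 (adjusted p = 0.0207) with p53 siRNA, a call lost without p53 siRNA replicate 1 or 3 or any 1 of the control siRNA arrays (adjusted p up to 0.0783).

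**Figure D3:**
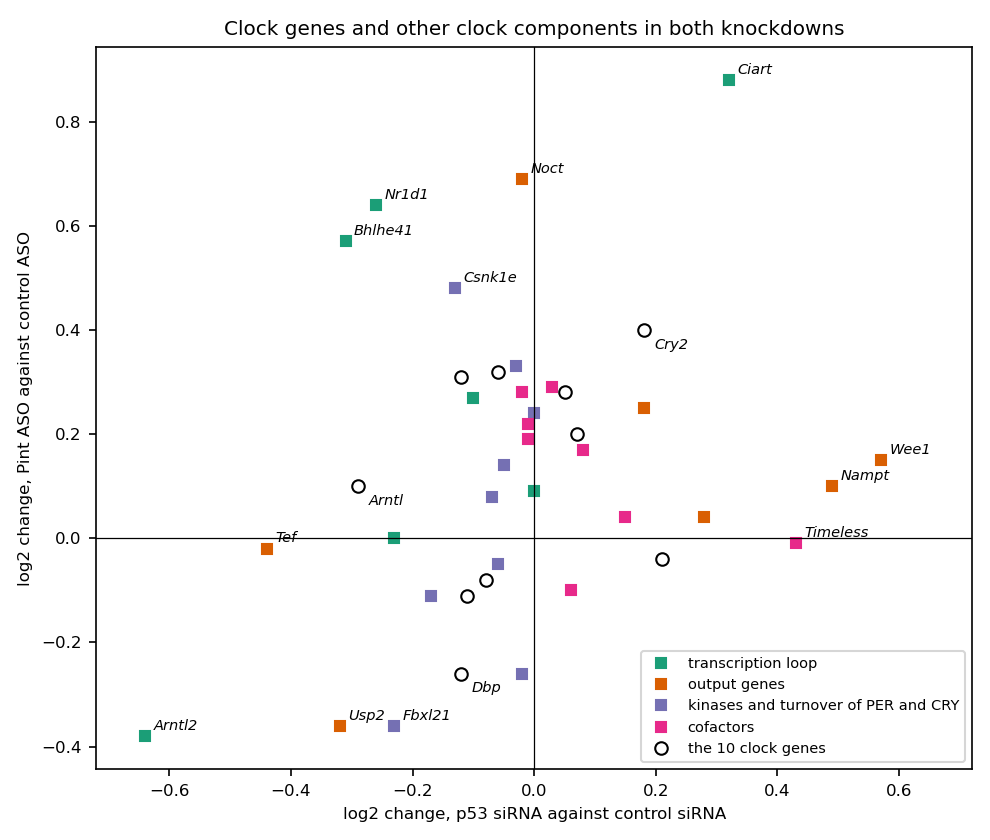
Log2 change with p53 siRNA (horizontal axis) against log2 change with Pint ASO (vertical axis) for the 10 clock genes (open circles) and 31 other clock components (squares, coloured by list). Nr1d1 and Noct lie high on the Pint ASO axis at 0.64 and 0.69, and Wee1 and Nampt lie far to the right at 0.57 and 0.49.

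Output genes of the clock moved in both directions. Pint ASO raised 2 of 7 and lowered 1, where 8.49% of all probe sets rose and 10.7% fell. With p53 siRNA 4 of 7 rose and 2 fell, where 7.97% of all rose and 8.96% fell. The 4 were Wee1, a kinase gene that holds back mitosis (0.57, adjusted p = 0.000372), Nampt, the NAD salvage enzyme gene (0.49, adjusted p = 0.0013), Hlf (0.28, adjusted p = 0.0256) and Nfil3 (0.18, adjusted p = 0.0293). Tef, a PAR bZIP relative of Dbp, fell by 0.44 (adjusted p = 0.000675) and the deubiquitinase gene Usp2 fell by 0.32 (adjusted p = 0.00148). The Hlf call was lost without control siRNA replicate 1 or 3 or p53 siRNA replicate 1 or 2 (adjusted p up to 0.0951), and the Nfil3 call without any control siRNA array or p53 siRNA replicate 2 or 3 (up to 0.104). With Pint ASO Noct, a rhythmic phosphatase gene once taken for a deadenylase, lay at 10.84, 10.85 and 10.83, against 10.19 and 10.12 in control ASO arrays. Noct rose by 0.69 (SE 0.06, adjusted p = 7.38e-05), Nfil3 rose by 0.25 (adjusted p = 0.00937, and 0.0736 without control ASO replicate 1), and Usp2 fell by 0.36 (adjusted p = 0.00155).

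Among 9 kinases and turnover factors of PER and CRY, 0 were called with p53 siRNA by limma, where 16.9% of all probe sets were. Of the 9, 3 had an unadjusted p under 0.05, a cut whose share of all probe sets was not counted and is at least that 16.9%. Pint ASO raised 2 and lowered 2 of the 9, where 8.49% of all probe sets rose and 10.7% fell. With Pint ASO Csnk1e, the casein kinase gene whose product marks PER for degradation, rose by 0.48 (adjusted p = 0.000252) and Dyrk1a rose by 0.33 (adjusted p = 0.001), although another Dyrk1a probe set changed by 0.10 (adjusted p = 0.408). Btrc, which encodes the ligase subunit that receives phosphorylated PER, fell by 0.26 (adjusted p = 0.00449, and 0.0709 with each arm fitted alone). Fbxl21, a CRY ligase gene, fell by 0.36 (adjusted p = 0.0314), a call lost without control ASO replicate 1 (0.228), Pint ASO replicate 2 (0.0835) or 3 (0.0656). Of 8 cofactors 2 rose with p53 siRNA, Timeless (0.43, adjusted p = 0.000721) and Hdac3 (0.15, adjusted p = 0.0339), where 7.97% of all probe sets rose. Another 2 rose with Pint ASO, Crebbp (0.29, adjusted p = 0.00658) and Sfpq (0.28, adjusted p = 0.0101), where 8.49% of all rose. With each arm fitted alone neither was called (0.0512 for Crebbp and 0.0924 for Sfpq). The Sfpq call was lost without control ASO replicate 2 (0.0766), and the Hdac3 call without any of the 6 siRNA arrays (0.0596 to 0.106).

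Signals that reset the clock were described as well. Of 8 genes of the cAMP and CREB route 4 rose with Pint ASO, where 8.49% of all probe sets rose. These were Nr4a1 (0.37, adjusted p = 0.00149), Nr4a2 (0.22, adjusted p = 0.00758), Sik1 (0.21, adjusted p = 0.0276) and Crtc1 (0.21, adjusted p = 0.0494). With p53 siRNA 1 of the 8 rose, Nr4a3 (0.19, adjusted p = 0.015), where 7.97% of all rose. The Crtc1 call was lost without 10 of the 11 arrays in turn, all but Pint ASO replicate 2 (up to 0.158). The Sik1 call was lost without Pint ASO replicate 1 or 3 or either of the control ASO arrays (up to 0.13), the Nr4a2 call without control ASO replicate 1 (0.0511), and the Nr4a3 call without control siRNA replicate 1 or p53 siRNA replicate 1 or 2 (up to 0.0624). Of 6 glucocorticoid genes Klf9 (0.23, adjusted p = 0.0123, and 0.0687 without control ASO replicate 2) rose with Pint ASO. The other glucocorticoid calls, both with p53 siRNA, were Fkbp5 (0.30, adjusted p = 0.0475) and the receptor gene Nr3c1 (-0.25, adjusted p = 0.0229). So 1 of 6 rose with Pint ASO, where 8.49% of all probe sets rose. With p53 siRNA 1 rose and 1 fell, where 7.97% of all rose and 8.96% fell. The Fkbp5 call was lost without 8 of the 11 arrays in turn, all but control siRNA replicate 1 and Pint ASO replicates 2 and 3 (up to 0.146), and the Nr3c1 call without control siRNA replicate 1 or 2 or p53 siRNA replicate 2 or 3 (up to 0.0865).

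**Figure D4:**
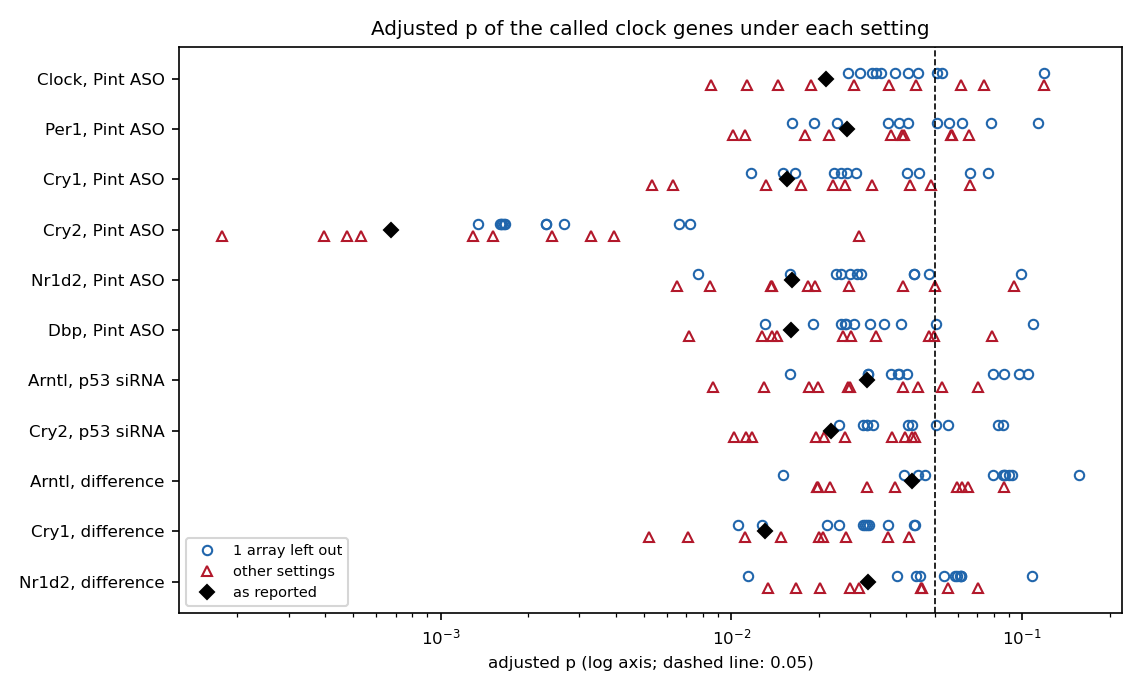
Adjusted p (horizontal log axis, dashed line at 0.05) of each call among the clock genes (rows) as reported (diamonds), with 1 array left out (circles) and under other processing settings (triangles). The Cry2 row for Pint ASO lies left of the dashed line throughout, up to 0.0275, and the other Pint ASO and p53 siRNA rows cross it.

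Among the 10 genes, the values over the 11 arrays followed each other most closely for Per1 and Clock (Pearson r = 0.979), Cry2 and Clock (0.936) and Cry1 and Nr1d2 (0.921), and least for Per2 and Bhlhe40 (-0.673). These correlations describe arrays that share 4 group means, and they carry no test. By the same measure, the genes most like Cry2 among 16146 others were Wdr43 (0.995), Edc3 (0.993), Clcn6 (0.991), Il17ra (0.991) and Noc4l (0.989). Those most like Arntl were Atp6v1c1 (0.989), Smad2 (0.987), Llph (0.986), Dhx38 (0.986) and Parg (0.980).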

How the data were processed

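RNA of 11 samples was hybridised to Affymetrix whole-transcript arrays from 300 ng of total RNA. The authors deposited log2 intensities from RMA, which corrects background, normalizes across arrays and summarizes probes. Array intensities compress ratios, so a fold can be understated. The table holds 34760 probe sets, of which 21640 carry 1 gene symbol and 1321 several. No gene was named from probe sets with several. Symbols were updated through Entrez identifiers. Tests took probe sets with a log2 value over 6 (linear 64) in 2 or more arrays of some group, and of several probe sets of a gene the brightest was used.

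All 4 groups were fitted on group means with limma 3.58.1 in R 4.3.3 (empirical Bayes without trend), as tested on simulated data, with Benjamini-Hochberg adjustment over all 26038 probe sets. All 10 clock genes were tested. Text names these genes, Pint, up to 4 called genes per list and contrast, members of counts up to 5, and the 5 most similar genes. The clock genes and lists were chosen with earlier results of these data known. Alternatives changed the filter, scaling, moderation, probe set choice, call threshold, replicate block and arrays. Array number limits precision. The study's main and supplementary methods name different array models.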

Additional observations from a re-analysis of the deposited data

Results flagged for a closer look

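The effect of Pint ASO minus that of p53 siRNA was tested as a contrast in limma with adjusted p under 0.05. It differed from 0 for 3 of the 10 clock genes and for 17 genes of the other lists. Of all probe sets 18.5% were called (9.15% higher and 9.4% lower). Among 31 other clock components 8 were higher and 4 lower. Higher too were 3 of 8 cAMP and CREB genes and 2 of 6 glucocorticoid genes. Among the 10 clock genes the difference was 0.43 for Cry1, 0.39 for Arntl and 0.37 for Nr1d2 on the log2 scale.

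In the transcription loop the difference was 0.90 for Nr1d1 and 0.88 for Bhlhe41. For Ciart the difference was 0.56 and not called (adjusted p = 0.104), while its other probe set gave 0.60 (adjusted p = 0.0111). Among output genes it was 0.71 for Noct, 0.42 for Tef, -0.39 for Nampt and -0.42 for Wee1. Among kinases and turnover factors it was 0.60 for Csnk1e, 0.36 for Dyrk1a and -0.24 for Btrc, and among cofactors 0.30 for Sfpq, 0.26 for Crebbp and -0.45 for Timeless. Among input genes it was 0.51 for Nr4a1, 0.26 for Sik1, 0.20 for Nr4a2, 0.43 for Nr3c1 and 0.33 for Klf9. The Nr4a2 difference was lost without any single array (adjusted p up to 0.128). The Crebbp difference was lost without each array but p53 siRNA replicate 1 (up to 0.132), and the Sik1 difference without each but p53 siRNA replicate 3 and Pint ASO replicate 2 (up to 0.105). The Btrc difference was lost without each array but p53 siRNA replicates 1 and 3 and Pint ASO replicate 3 (up to 0.0748). The Nampt difference was lost without control siRNA replicate 2 or 3, p53 siRNA replicate 2 or 3, control ASO replicate 1 or Pint ASO replicate 2 or 3 (up to 0.129). The Sfpq difference was lost without control siRNA replicate 2 or 3, p53 siRNA replicate 1 or 3, control ASO replicate 2 or Pint ASO replicate 1 (up to 0.106). Without control ASO replicate 2 the Bhlhe41 and Nr3c1 differences were lost (0.0605 and 0.0515), and without control ASO replicate 1 that of Wee1 (0.0576). The target of the knockdown and the chemistry of the oligonucleotide cannot be told apart in these differences.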

How the results depend on the processing

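With Pint ASO 6 of the 10 clock genes were called, and 1 when each arm was fitted alone, where 7.94% of all probe sets were called, and 1 with B over 3 as the call. Fitting each arm alone also lost Pint ASO calls of the other lists (adjusted p 0.0512 to 0.195). These were Bhlhe41, Nfil3, Fbxl21, Btrc, Sfpq, Crebbp, Crtc1, Sik1, Nr4a2 and Klf9. With p53 siRNA the count of 2 became 1 with each array centred on its median, 0 with B over 3 and 1 with a replicate block by title number. Bhlhe40 was called higher besides these 2 with quantile normalization applied again (adjusted p = 0.0459) and with array weights (0.0499). For the difference between the effects the count of 3 became 0 with B over 3, 1 with a replicate block by title number and 1 by description number. It became 4, Cry2 included, with the filter required in every group (0.0495) and with the mean of the probe sets of a gene (0.0335). Between the controls the count of 3 became 1 without a filter on low values, 1 with array weights, 0 with B over 3 and 0 with either replicate block. With 1 array left out the counts ranged from 2 to 6 for Pint ASO, 0 to 3 for p53 siRNA, 1 to 3 for the difference and 0 to 3 between the controls. Leaving out 1 control ASO array leaves a single one, assumed to vary like the other groups. The change of Bhlhe40, not called, ranged from -0.09 to 0.03 with Pint ASO, positive without Pint ASO replicate 3, and from -0.09 to 0.02 between the controls, positive without control siRNA replicate 1. The cause of these shifts was not tested.

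The Arntl difference was also lost with each array centred on its median (adjusted p = 0.0863) and without a filter on low values (0.0621). Replicate numbers were not used as pairs in the main fit. Deviations of same-numbered siRNA arrays from their group means correlated at -0.284, -0.181 and -0.037. In the ASO arm they correlated at -0.046 and -0.42 by titles and at 0.42 and 0.375 by descriptions, which number the control ASO arrays differently. With the replicate block, 4 clock genes were called with Pint ASO by either numbering. By titles the calls of Per1 (adjusted p = 0.0656) and Clock (0.0738) were lost. By descriptions those of Clock (0.0618) and Nr1d2 (0.0501) were lost. Cry2 was called higher with Pint ASO under all 22 alternatives (adjusted p 0.000177 to 0.0275).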
